A study of Drosophila melanogaster with 31 samples.

Results

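The cytosolic ribosomal protein genes were taken by name, as the rows whose symbol starts with RpS or RpL, without 10 copies set aside as germline or duplicate forms. This gave 80 of the 9251 genes in the deposited expression table, 32 named for the small subunit and 48 for the large subunit. Of the 10 copies set aside, 7 were in the table. The rule uses names, not measured values, but it was set with earlier results of these data known. The gene sta, whose product is a small subunit protein, carries another kind of symbol and is outside the rule. All 80 genes reached 1 TPM in every library, and all were tested in every fit.

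Ribosomal proteins are needed in fixed proportions to build a ribosome, and their mRNAs are among the most abundant in growing cells. In animals these mRNAs share a pyrimidine tract at the start of the message, through which the TOR kinase pathway controls whether they are held back or loaded on ribosomes. In the Drosophila ovary, germline stem cells and their daughters need much ribosome production, and nurse cells make the ribosomes stored in the egg. Polysomes are mRNAs carrying several ribosomes, so the level in a polysome library against that in its input describes how far an mRNA is found with ribosomes.

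The series measured poly(A) RNA of whole ovaries, as TPM, a transcript share scaled by gene length. Of total mRNA there were 8 groups, each with 2 libraries. Adult and young wild type carried the insertion UAS-Dcr-2.D in w[1118], with the germline driver GAL4-nos.NGT. The twister (tst) mutant was tstMB10212 over Df(3R)Exel9013, and tst RNAi used the nosGAL4 driver with UAS-Dcr2, so knockdown was driven in germ cells. The pelota (pelo) groups were pelo1/CyO and pelo1/pelo1, and the hfp groups hfp9/TM2 and hfp9/hfp9. Input and polysome libraries came in pairs from control, pelo1/pelo1 and tst RNAi ovaries, 2 preparations each, and the control preparations differ in genotype, since preparation 1 has the driver genotype of the wild type and preparation 2 is pelo1/CyO. Single libraries came from nosGAL4 > bam RNAi input and polysomes and from bamΔ86 ovaries. Ovaries were 1 to 3 days post-eclosion, and those of young wild type 0 to 3 hours. Twister belongs to the Ski complex that feeds mRNA to the exosome, pelota rescues stalled ribosomes, and hfp is a splicing regulator.

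Libraries held 7233 to 8675 genes at 1 TPM or more, and since TPM hold no read counts their depth is unknown. Whether replicates were separate animals is not stated in the sources used here, so p values measure only the spread between these libraries. The tst level was 35.3 and 39.6 TPM in adult wild type, 6.34 and 8.62 in the tst mutant and 6.77 and 11.7 in tst RNAi, and in the inputs it was 32.4 and 30.3 TPM in control and 18.0 and 14.4 in tst RNAi. The pelo level was 45.1 and 90.5 TPM in heterozygotes and 10.8 and 44.6 in mutants, whose replicate 2 was nearly level with heterozygote replicate 1. In the inputs pelo was 137 and 76.9 TPM in control and 33.1 and 34.4 in the mutant. The hfp level was 25.8 and 48.1 TPM in heterozygotes and 9.29 and 20.8 in mutants.

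Ribosomal protein transcripts made up 18.8 to 45.4 percent of all TPM in a library. In adult wild type they held 23.9 and 23.3 percent, in young wild type 40.0 and 29.4 percent, and in the tst mutant 35.7 and 31.7 percent. In tst RNAi they held 23.7 and 26 percent, close to adult wild type. The pelo groups differed most between their own replicates, with 32.6 and 21.0 percent in heterozygotes and 45.4 and 22.2 percent in mutants. The hfp heterozygotes held 21.7 and 18.8 percent and the mutants 30.6 and 20.7 percent. Young wild type and the tst mutant thus lay above adult wild type in both libraries, whereas the pelo and hfp groups overlapped with their own heterozygotes.

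**Figure D1:**
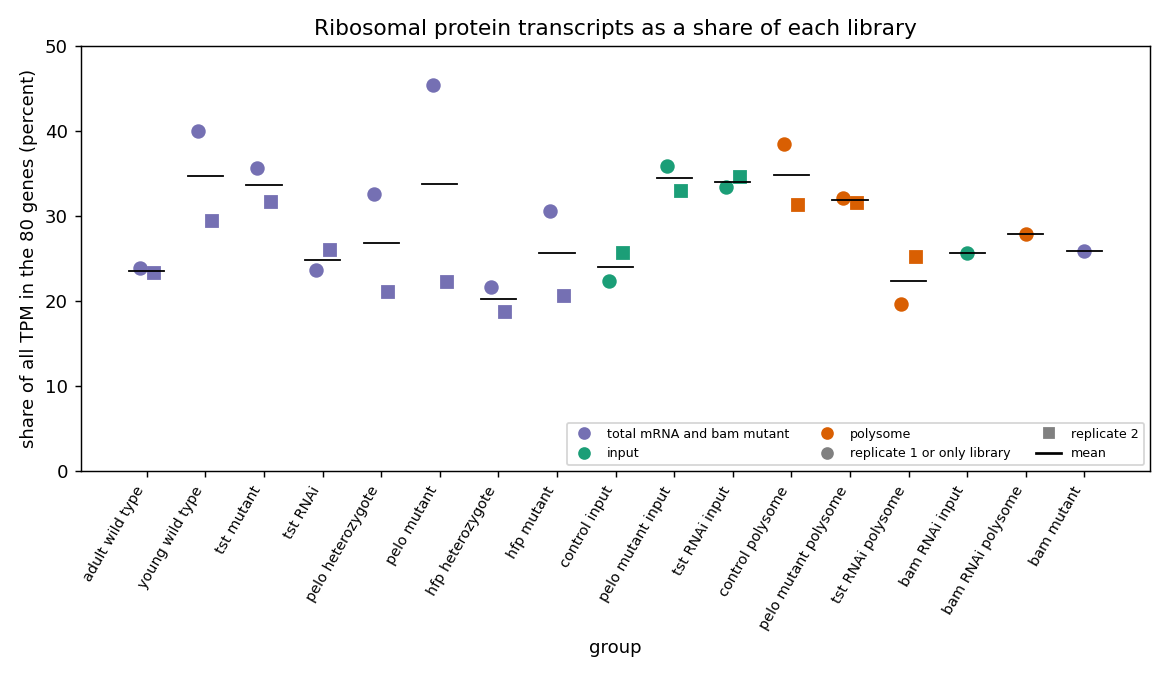
Share of all TPM held by the 80 ribosomal protein genes (vertical axis, percent) in each library, by group (horizontal axis); circles are replicate 1 or a single library, squares replicate 2, lines the group mean. The highest value is 45.4 percent in pelo mutant replicate 1 and the lowest 18.8 percent in hfp heterozygote replicate 2.

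Levels per length differed widely within the set in adult wild type. RpL41, a very short large subunit protein, was highest at 11709 ± 4021 TPM (SD, n = 2), followed by RpS27A, made as a fusion with ubiquitin, at 6935 ± 3019 TPM. RpS3A followed at 5459 ± 707 TPM, and RpLP2, an acidic protein of the stalk that recruits translation factors, at 5350.1 ± 768 TPM. The last 3 of these did not differ beyond the spread of RpS27A. The lowest were RpS15Ab, a copy of RpS15Aa, at 100.1 ± 60.1 TPM, and RpLP0-like at 163 ± 15.0 TPM. RpLP0-like resembles the yeast assembly factor Mrt4 rather than a subunit of the mature ribosome. RpS5a at 964 ± 52.4 TPM and RpS21 at 1065 ± 365 TPM came next, and they differed by less than the spread of RpS21. Close copies such as RpS15Aa and RpS15Ab may share reads, so their levels are uncertain.

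Ribosomal protein mRNA lay higher in young than in adult ovaries. Medians over the 80 genes were 5034 and 3568 TPM in young against 3061 and 2629 TPM in adult wild type. On the log2(TPM + 1) scale used for all changes here, the median difference was 0.58, with 79 of 80 genes above 0, while the median of all 8864 genes was -0.05. None of the 80 passed the test (limma, Benjamini-Hochberg adjusted p under 0.05), in a comparison where 11.1 percent of all genes did. Of the 80, 7 had an unadjusted p under the threshold, against 2157 of all 8864 genes, so the set lay below that background. In 59 of the 80 both young libraries lay above both adult libraries, against 31.6 percent of all genes.

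The highest value in young ovaries was that of RpS5a, a small subunit protein at the mRNA exit side that has a germline copy, RpS5b. It was 1001 and 927 TPM in adult and 2787 and 2403 in young ovaries, a difference of 1.43 (SE 0.52, adjusted p = 0.109). RpLP0-like followed, with 173 and 152 TPM in adult and 356 and 302 in young and a difference of 1.01 (SE 0.40, adjusted p = 0.147). For both genes the young libraries lay above the adult ones without overlap. At the other end stood RpL38, a small protein of the large subunit, at -0.09 (SE 0.55, adjusted p = 0.952), and RpL39, a protein of the exit tunnel, at 0.02 (SE 0.61, adjusted p = 0.995). The copy RpS5b was 2659 and 1494 TPM in adult and 3475 and 1814 in young ovaries, and its groups overlapped.

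The replicate number in these groups goes with a strand label, given as not applicable in the first replicate and as reverse in the second. Within replicate 1 the median difference between young and adult was 0.74 with all 80 genes above 0, and within replicate 2 it was 0.39 with 69 above 0. With the replicate number as a block, 18 genes rose, against 12.4 percent of all genes. In a fit of the adult, young and tst libraries alone, added after seeing the data, 41 rose, against 21.7 percent of all genes, among them RpS5a at 1.43 (SE 0.21, adjusted p = 0.00105), RpLP0-like at 1.01 (SE 0.15, adjusted p = 0.00106) and RpL22 at 0.95 (SE 0.18, adjusted p = 0.00334).

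The tst mutant stood in the same direction from adult wild type. The medians over the 80 genes were 4499 and 3505 TPM, the median difference was 0.51 with all 80 above 0, and the median of all genes was 0.02. None passed, where 4.23 percent of all genes did. Of the 80, 3 had an unadjusted p under the threshold, against 1652 of all 8864 genes. In 53 of the 80 both mutant libraries lay above both adult libraries, against 32.3 percent of all genes. RpS5a, at 2666 and 1801 TPM, again had the highest value, 1.19 (SE 0.52, adjusted p = 0.245), followed by RpL39 at 0.92 (SE 0.61, adjusted p = 0.506). RpLP0, the base of the stalk, had the lowest at 0.16 (SE 0.34, adjusted p = 0.876), and RpS3A the next at 0.23 (SE 0.31, adjusted p = 0.795). Within replicate 1 the median difference was 0.58 and within replicate 2 it was 0.43. The replicate block in the fit of all 8 groups gave 0 calls, and the fit of the adult, young and tst libraries alone gave 11 rises, a share below the 18.6 percent of all genes that rose there.

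In tst RNAi total mRNA the genes lay near adult wild type. Their median difference was 0.09, with 67 above 0, against 0.04 for all genes. None passed in limma, where 1.02 percent of all genes did. Of the 80, 0 had an unadjusted p under the threshold, against 688 of all 8864 genes. In 10 of the 80 both libraries lay above adult wild type, and among all genes 23.4 percent did. The extremes were RpL39 at 0.46 (SE 0.61, adjusted p = 1) and RpLP2 at -0.17 (SE 0.52, adjusted p = 1). Within replicate 1 the median difference was 0.01, with 41 genes above 0, and within replicate 2 it was 0.16, with 76 above 0. RpS5a was 1050.1 and 1234 TPM here, slightly above both adult libraries.

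In pelo mutants the median difference from heterozygotes was 0.27, with 79 genes above 0, against -0.01 for all genes, but the replicates differed, at 0.45 for replicate 1 and 0.09 for replicate 2. None passed in limma, where 0.226 percent of all genes did. Of the 80, 0 had an unadjusted p under the threshold, against 677 of all 8864 genes. In 2 of the 80 both mutant libraries lay above both heterozygote libraries, against 16.9 percent of all genes. Without pelo mutant replicate 1 the median was -0.23, and without heterozygote replicate 2 it was -0.04. RpL39 had the highest value, 0.55 (SE 0.61, adjusted p = 1), followed by RpS26, at the mRNA exit side, at 0.49 (SE 0.39, adjusted p = 1), and RpS15Ab the lowest, -0.22 (SE 0.62, adjusted p = 1).

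In hfp mutants the median difference from heterozygotes was 0.28 with 75 genes above 0, at 0.41 for replicate 1 and 0.14 for replicate 2, against -0.07 for all genes. None passed in limma, where 0.993 percent of all genes did. Of the 80, 0 had an unadjusted p under the threshold, against 914 of all 8864 genes. In 17 of the 80 the mutant libraries lay above the heterozygotes without overlap, against 19.8 percent of all genes, which is near that background. Without hfp mutant replicate 1 the median was -0.01. RpL39 was highest at 0.87 (SE 0.61, adjusted p = 0.813), followed by RpL36 at 0.77 (SE 0.40, adjusted p = 0.593), and RpS2, on the mRNA entry side, was lowest at -0.30 (SE 0.42, adjusted p = 0.934).

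Some genes stood apart in both replicate 1 libraries of the hfp groups. After setting each library to its own median over the 80 genes, 11 genes were lower there than in every other library of the main table, and 11 were higher. On the same scale 0.778 percent of all genes were lower there and 2.08 percent higher. RpL23A, at the exit tunnel, was 323 TPM in heterozygote and 386 in mutant replicate 1, and 1978 and 2184 in replicate 2. RpL4, another tunnel protein, was 524 and 667 TPM against 2488 and 2918. The 11 higher genes included RpL32, RpL13A and RpS23. These genes were picked for standing apart in both libraries, so that heterozygote and mutant share the pattern is fixed by the choice.

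**Figure D2:**
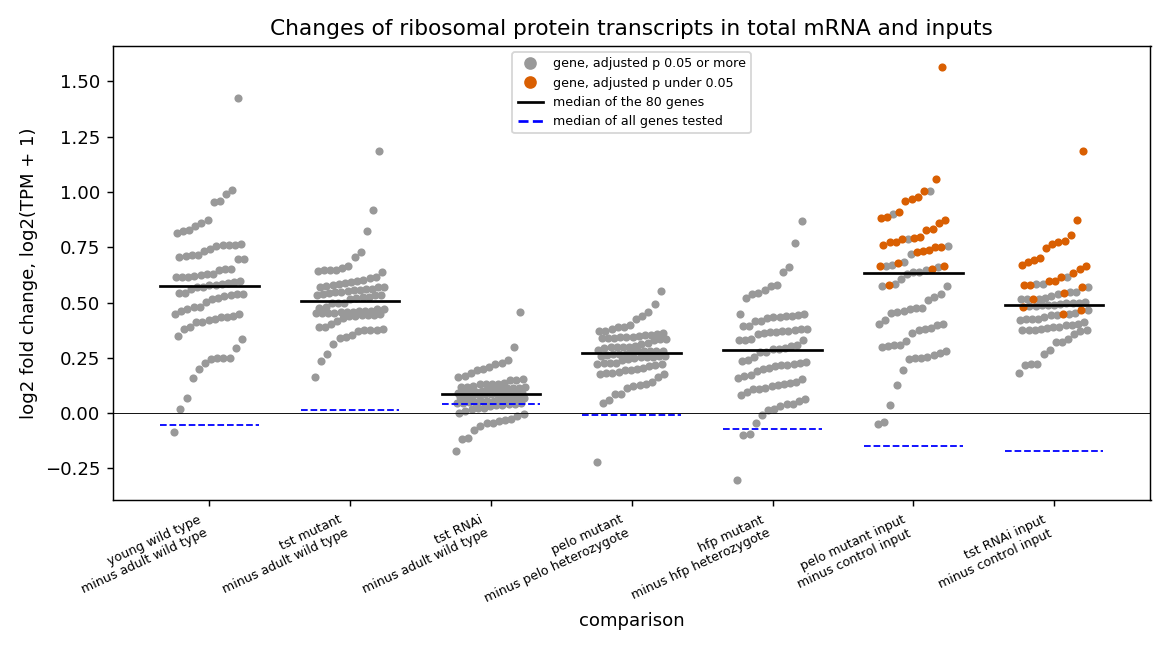
Log2 fold change (vertical axis, log2(TPM + 1)) of each of the 80 genes in 5 comparisons of total mRNA and 2 of inputs (horizontal axis); black lines are medians of the 80 genes, dashed lines medians of all genes tested, orange points passed the test. Orange points appear only in the 2 input comparisons, 29 in pelo mutant and 25 in tst RNAi.

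Transcripts of other cell types also differed between these groups. Eggshell and yolk transcripts, made mainly by follicle cells, held 8.43 to 10.3 percent of TPM in adult wild type, 0.129 to 0.172 in young, 2.65 to 2.81 in the tst mutant and 5.81 to 7.71 in tst RNAi. Of the 37 listed genes that were measured, 33 fell in young ovaries and 17 in the tst mutant. Among all genes 3.16 and 0.677 percent fell there. Muscle sheath transcripts held 0.0545 to 0.0687 percent in adult and 0.617 to 0.794 percent in young wild type. There 14 of 18 genes rose, against 7.93 percent of all genes. The same transcripts held 0.187 to 0.331 percent in the tst mutant and 0.345 to 0.366 in tst RNAi. In each 8 of 18 genes rose, against 3.55 percent of all genes in the tst mutant and 0.936 percent in tst RNAi. Hemocyte and basement membrane transcripts held 0.0484 to 0.0489 percent in adult and 0.257 to 0.332 percent in young wild type. There 10 of 17 genes rose and 1 fell, against 7.93 and 3.16 percent of all genes. In each of the tst mutant and tst RNAi 3 of 17 rose, against 3.55 and 0.936 percent of all genes. Eggshell and yolk transcripts also held 8.87 to 10.2 percent in pelo heterozygotes and 3.35 to 3.99 in pelo mutants, and 5.18 to 7.45 in hfp heterozygotes and 2.98 to 7.32 in hfp mutants. No defining marker of these lists was at 0. Their part in the result was not tested. Fewer cells of a type and less RNA per cell cannot be told apart in whole ovaries.

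In pelo mutant inputs 29 of the 80 genes rose, against 14.6 percent of all genes, with 0 falling, a median of 0.63 and 78 genes above 0. In tst RNAi inputs 25 rose, against 21.7 percent of all genes, with a median of 0.49 and all 80 above 0. The share in tst RNAi is near that background. The medians of all genes were -0.15 and -0.17. The control inputs differed, with medians over the 80 genes of 2275 TPM in replicate 1, of the driver genotype, and 3038 in replicate 2, pelo1/CyO. Against the control input of the same number, the median difference in pelo mutants was 0.88 for replicate 1 and 0.37 for replicate 2. In tst RNAi these values were 0.64 and 0.30.

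RpS5a had the largest rise in tst RNAi inputs. It was 812 and 1054 TPM in control inputs, 1919.7 and 1797 in pelo mutant inputs and 2092 and 2115 in tst RNAi inputs, with no overlap. The rises were 1.00 (SE 0.18, adjusted p = 0.00859) in pelo mutants and 1.18 (SE 0.18, adjusted p = 0.00124) in tst RNAi. RpS14a, a protein of the small subunit platform, also rose in both, by 0.89 (SE 0.24, adjusted p = 0.03) and by 0.70 (SE 0.24, adjusted p = 0.0383). RpS14a has a near-identical copy, RpS14b, so reads could be split between them. Of the 6 measured genes at the exit and platform side, 4 rose in pelo mutants and 5 in tst RNAi. The whole set had 29 and 25 rises of 80, and among all genes 14.6 and 21.7 percent rose. Whether the list differs from the set was not tested.

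RpL22 was 204 and 719.6 TPM in control inputs and 1148 and 1126 TPM in pelo mutant inputs, a rise of 1.57 (SE 0.48, adjusted p = 0.0434). The control inputs differed more from each other in RpL22 than in RpS5a. Of the 10 genes with a copy set aside, 8 rose in pelo mutant inputs and 4 in tst RNAi inputs. In the whole set 29 and 25 of 80 did, and among all genes 14.6 and 21.7 percent, and the list was not tested against the set. RpLP0-like was 188 and 187 TPM in control and 310.1 and 347 in tst RNAi inputs and rose by 0.80 (SE 0.13, adjusted p = 0.00163). RpL39 rose by 0.88 (SE 0.30, adjusted p = 0.0376) in tst RNAi. Of the 5S particle, which joins the large subunit during assembly, RpL11 rose in pelo mutants by 0.86 (SE 0.21, adjusted p = 0.0226), and RpL5 rose in tst RNAi by 0.52 (SE 0.16, adjusted p = 0.0266).

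The counts changed when single libraries were left out. Without pelo mutant input replicate 1 or 2 no gene of the set passed, where 9.37 and 6.9 percent of all genes rose. Without control input replicate 1 there were 18 rises, and without control input replicate 2 there were 60, where 10.1 and 18.3 percent of all genes rose. Such fits leave 1 library in a group, which is assumed to vary like those of the other groups. For tst RNAi, leaving out 1 of its own inputs gave 3 or 2 rises, where 14.4 and 14.8 percent of all genes rose, and leaving out control input replicate 2 gave 75, against 22.4 percent. Muscle sheath genes rose in both inputs, 16 and 17 of 18, where 14.6 and 21.7 percent of all genes rose. Eggshell genes fell, 8 and 32 of 37, where 16.9 and 32.3 percent of all genes fell. The 8 falls in pelo mutant inputs are near that background. Eggshell and yolk transcripts held 5.72 to 9.02 percent of TPM in control inputs, 4.29 to 5.29 in pelo mutant and 1.52 to 1.78 in tst RNAi inputs. Undifferentiated germ cell transcripts held 0.143 to 0.189 percent in control, 0.0954 to 0.115 in pelo mutant and 0.0706 to 0.0834 in tst RNAi inputs. The part of these lists in the counts was not tested.

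Of 40 measured ribosome biogenesis genes, 13 rose and 4 fell in pelo mutant inputs, where 14.6 percent of all genes rose and 16.9 percent fell. In tst RNAi inputs 19 rose and 2 fell, where 21.7 percent of all genes rose and 32.3 percent fell. Nle, a large subunit assembly factor, rose by 1.26 (SE 0.20, adjusted p = 0.00525) in pelo mutants, and NHP2, of the small nucleolar particles that modify ribosomal RNA, rose by 1.05 (SE 0.17, adjusted p = 0.00158) in tst RNAi. In young ovaries 7 of the 40 rose and 0 fell, where 7.93 percent of all genes rose, Nle by 1.43 (SE 0.33, adjusted p = 0.015). The TOR pathway list had 1 rise and 5 falls of 23 genes in pelo mutants and 2 rises and 11 falls in tst RNAi, where 16.9 and 32.3 percent of all genes fell, so the 5 falls in pelo mutants are near that background. In young ovaries 0 of 23 passed, where 11.1 percent of all genes did. Thor, which holds back cap-dependent translation, rose by 2.46 (SE 0.40, adjusted p = 0.00584) in pelo mutants. Pdk1, a kinase upstream of S6k, was at -1.74 (SE 0.18, adjusted p = 0.000267) in tst RNAi.

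In polysome to input ratios the set lay on different sides of 0 in control and tst RNAi ovaries. In control ovaries the median log2 ratio of the 80 genes was 0.51, with 70 above 0, while the median of all 8572 genes was -0.55. In control preparation 1 the median was 0.73 and in preparation 2 it was 0.29. In pelo mutants the medians were -0.23 and -0.06, and in tst RNAi -0.76 and -0.47. The single bam RNAi preparation gave 0.15. The 72 mitochondrial ribosomal protein genes, which build another ribosome, had medians from 0.12 to 0.61 in these 7 preparations.

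**Figure D3:**
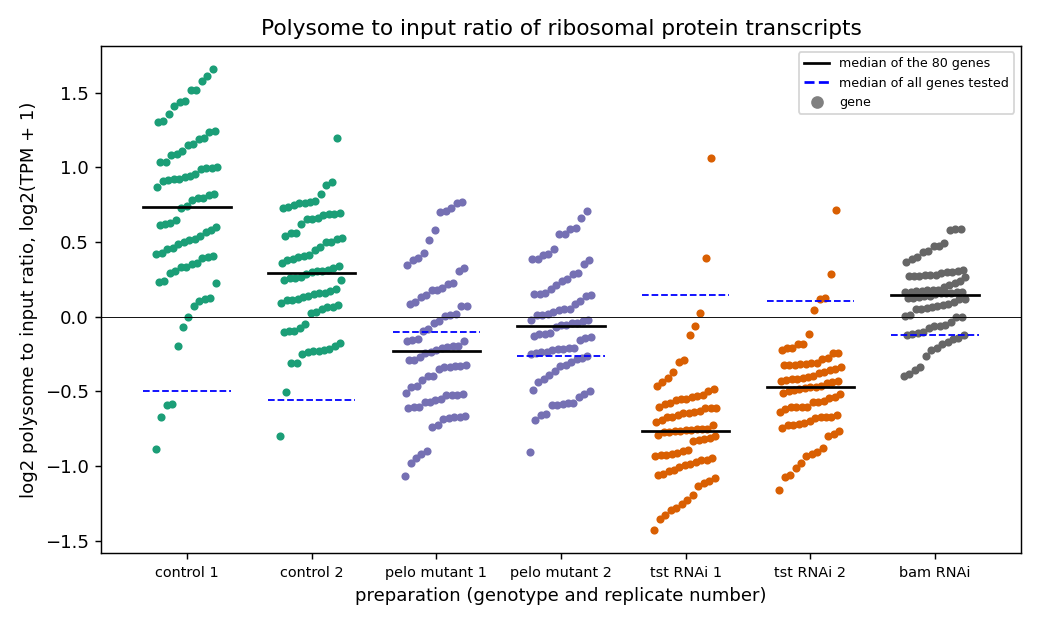
Log2 polysome to input ratio (vertical axis, log2(TPM + 1)) of each of the 80 genes in 7 preparations (horizontal axis); black lines are medians of the 80 genes and dashed lines medians of all genes. Medians are 0.73 and 0.29 in control and -0.76 and -0.47 in tst RNAi.

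In control ovaries 28 genes were higher in polysomes, against 3.25 percent of all genes, and 1 was lower, RpL21, against 38.4 percent of all genes. Among the highest were RpL40, a ubiquitin fusion, at 1.20 (SE 0.27, adjusted p = 0.00736), RpL22 at 1.15 (SE 0.23, adjusted p = 0.00496) and RpS26 at 1.15 (SE 0.25, adjusted p = 0.00664). RpL21 was 8433 and 5575 TPM in control inputs and 5300.3 and 3202 TPM in their polysomes, a ratio of -0.73 (SE 0.25, adjusted p = 0.0392). Without control preparation 1 there were 17 rises, against 3.5 percent of all genes, and without preparation 2 there were 42, against 4.8 percent. The control then has 1 preparation, and the spread comes from the other genotypes.

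In pelo mutants no gene of the set passed in limma, where 5.9 percent of all genes did, with a median of -0.16 against -0.18 for all genes, and 16 had an unadjusted p under the threshold. RpS4, of the small subunit, was highest at 0.74 (SE 0.22, adjusted p = 0.0704) and RpL30 lowest at -0.99 (SE 0.25, adjusted p = 0.0518). In tst RNAi none passed, where 0.035 percent of all genes did, with 54 under the threshold unadjusted. Its median was -0.63 with 76 genes below 0, and the median of all genes was 0.12. RpS29 at -1.26 (SE 0.27, adjusted p = 0.259) and RpL30 at -1.25 (SE 0.25, adjusted p = 0.259) were lowest, and RpS15Ab was highest at 0.89 (SE 0.20, adjusted p = 0.259). Averaged over the 3 genotypes, 4 rose, against 6.35 percent of all genes, and 7 fell, against 28 percent. RpL22 was at 0.60 (SE 0.13, adjusted p = 0.00888) and RpL21 at -0.71 (SE 0.14, adjusted p = 0.00614) in this average.

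The ratio in tst RNAi was lower than in control for 47 of the 80 genes, a fall that 0.968 percent of all genes showed, and 0 were higher. The median difference was -1.13, with 76 genes below 0, while that of all genes was 0.70, which is the shift these values are read against. The 47 were 20 small and 27 large subunit genes. The same input libraries enter the input comparison, where the median of the 80 genes in tst RNAi was 0.49, with the opposite sign. A higher input thus lowers this difference by itself, and the 2 results are not independent. In 75 genes both tst RNAi ratios lay below both control ratios, against 5.94 percent of all genes, and 57 were above 0 in both control preparations and below 0 in both tst RNAi preparations, against 1.75 percent of all genes.

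RpS29, a small zinc-binding protein of the small subunit, showed the lowest difference. It was 5014 and 4290.2 TPM in control inputs and 14332 and 6907 in control polysomes, and 6093 and 6742 TPM in tst RNAi inputs and 2378 and 3015 in their polysomes. Polysome levels were higher than input in both control preparations and lower in both of tst RNAi. The log2 ratios were 1.51 and 0.69 in control and -1.36 and -1.16 in tst RNAi, a difference of -2.36 (SE 0.38, adjusted p = 0.0166).

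RpLP2 was 4682 and 4377 TPM in control inputs and 9293 and 10057 in their polysomes, and 6204 and 6512 TPM in tst RNAi inputs and 3025 and 3444 in their polysomes, a difference of -2.07 (SE 0.34, adjusted p = 0.0166). All 5 genes of the stalk and its base fell, with a median of -1.68, including RpLP1 at -1.72 (SE 0.38, adjusted p = 0.0198), RpL40 at -1.68 (SE 0.38, adjusted p = 0.0206), RpLP0 at -1.25 (SE 0.34, adjusted p = 0.0305) and RpL12 at -1.23 (SE 0.35, adjusted p = 0.0365). RpL32, on the large subunit surface, was 1794 and 3025 TPM in control inputs and 4438 and 5130.4 in polysomes, and 3403 and 3173 TPM in tst RNAi inputs and 1426 and 1822 in their polysomes. Its difference was -2.06 (SE 0.35, adjusted p = 0.0166). Both genes were higher in polysomes than in input in each control preparation and lower in each of tst RNAi. Small subunit genes with large differences included RpS21 at -2.02 (SE 0.35, adjusted p = 0.0166), RpS16 at -2.01 (SE 0.35, adjusted p = 0.0166), RpS26 at -1.89 (SE 0.35, adjusted p = 0.0169) and RpS12 at -1.87 (SE 0.34, adjusted p = 0.0169).

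**Figure D4:**
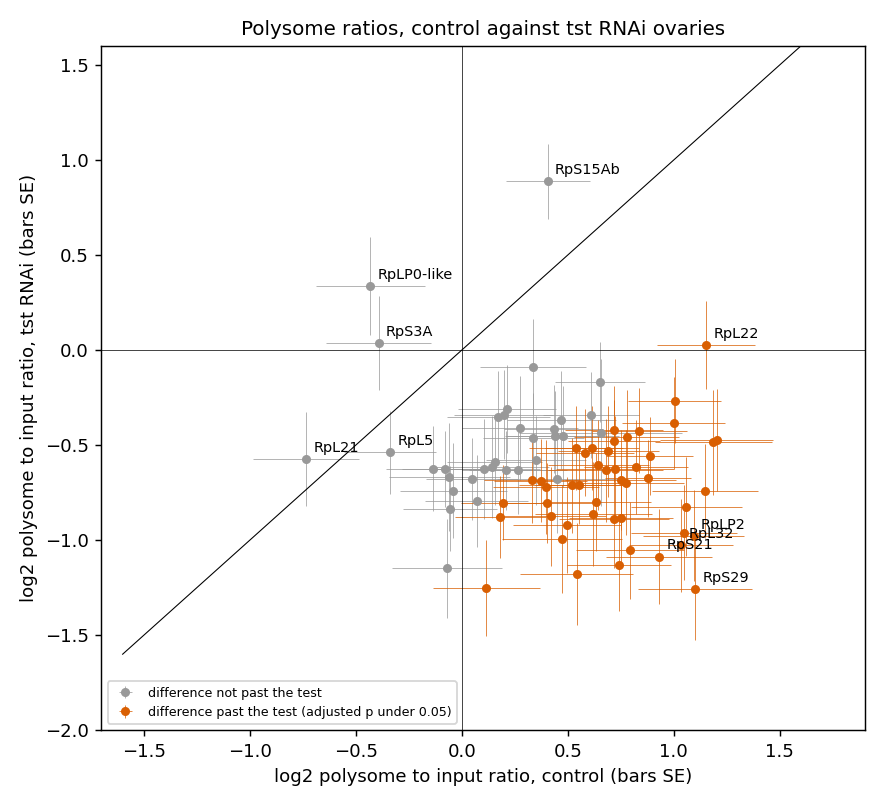
Log2 polysome to input ratio in tst RNAi (vertical axis) against control (horizontal axis) for the 80 genes, with SE bars and the line of equal ratios; orange points have a difference that passed the test. RpS29 is at 1.10 in control and -1.26 in tst RNAi, and RpL21, RpS3A, RpLP0-like and RpS15Ab lie above the line.

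Of the 6 genes on the mRNA entry side 4 fell, and of the 6 at the exit side 4. At the peptide exit tunnel 3 of 8 fell, and of the 3 ubiquitin fusions 2. In the whole set 47 of 80 fell, and 0.968 percent of all genes did. Of the 5S particle RpL11 fell, at -1.26 (SE 0.29, adjusted p = 0.0216), while RpL5 was at -0.20 (SE 0.31, adjusted p = 0.639). Of the 10 genes that have a copy set aside, 9 fell, with a median of -1.20, and RpS5a at -0.54 (SE 0.28, adjusted p = 0.173) did not pass. Whether these lists differ from each other or from the whole set was not tested. RpL22 passed at -1.13 (SE 0.33, adjusted p = 0.0376) although its tst RNAi ratios were near 0, at -0.06 and 0.12, since its control ratios were 1.58 and 0.73.

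Above 0 were RpLP0-like at 0.77 (SE 0.37, adjusted p = 0.142), RpS15Ab at 0.48 (SE 0.28, adjusted p = 0.215), RpS3A at 0.43 (SE 0.35, adjusted p = 0.371) and RpL21 at 0.16 (SE 0.35, adjusted p = 0.748), none of which passed. RpS15Ab was 106 and 123 TPM in tst RNAi inputs and 222 and 202 in their polysomes, higher in polysomes in both. Of the TOR pathway list 11 of 23 genes rose in this difference and 0 fell, of ribosome biogenesis 7 of 40 rose and 0 fell, and of promoter factors of ribosomal protein genes 4 of 8 rose. Examples are Pdk1 at 1.74 (SE 0.34, adjusted p = 0.0173), S6k, the kinase of the small subunit protein RpS6, at 1.55 (SE 0.35, adjusted p = 0.0206), and Myc, which drives ribosome production, at 1.79 (SE 0.50, adjusted p = 0.0336). Among all genes 1889 rose, or 22 percent. Pdk1 was also lower in tst RNAi inputs, and those libraries enter this difference with the opposite sign, so its 2 values are not independent.

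The count of 47 rested on both tst RNAi preparations and on the scaling. Without either of them no gene of the whole table passed. With equal library medians 18 fell, against 0.63 percent of all genes, with quantile normalization 0, and with TPM rescaled over the genes outside the set 0, and under these last settings no gene of the table passed either. Over 15 settings between 66 and 80 of the 80 genes were below 0, and the median difference lay between -2.0 and -0.48. Eggshell and yolk transcripts held 10.0 to 16.5 percent of TPM in control polysomes and 2.15 to 2.63 in tst RNAi polysomes. With TPM rescaled without those genes, 49 passed.

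In pelo mutants the ratio lay below that of control for 73 of the 80 genes, with a median difference of -0.63 against 0.40 for all genes. None passed in limma, where 0 percent of all genes did. Of the 80, 28 had an unadjusted p under the threshold, against 1140 of all 8572 genes. In 66 genes both pelo mutant ratios lay below both control ratios, against 5.61 percent of all genes. RpS29, at 5963 and 5491 TPM in pelo mutant inputs and 4147 and 3907 in their polysomes, was lowest at -1.61 (SE 0.38, adjusted p = 0.374), followed by RpS21 at -1.40 (SE 0.35, adjusted p = 0.374). RpLP0-like was highest at 0.46 (SE 0.37, adjusted p = 0.506). Without control preparation 2 there were 37 falls, against 2.02 percent of all genes. This comparison and that of tst RNAi use the same control libraries.

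The single bam libraries come from ovaries in which bam was knocked down or mutated, a gene that germline stem cell daughters need to differentiate. Control inputs held bam at 65.1 and 40.1 TPM, the bam RNAi input at 3.10 and the bam mutant library at 5.61. The bam RNAi polysome library held bam at 18.9 TPM, between the control polysomes at 41.2 and 11.8. Ribosomal protein genes held 25.7 percent of TPM in the bam RNAi input, 27.9 percent in its polysomes and 25.9 percent in the bam mutant, beside 22.4 and 25.6 percent in control inputs. RpS5a stood at 2924 TPM after bam RNAi and at 3229 without bam, above both control inputs. Of the copies set aside, RpS19b was at 689 TPM after bam RNAi and 417 in the mutant, while control inputs held 3.72 and 3.14 TPM. There is no replicate, and eggshell and yolk transcripts held 7.92 percent of TPM in the bam mutant and 1.11 percent in the bam RNAi input, but 4.03 percent in the bam RNAi polysomes. The ratio of that preparation thus compares libraries that differ in these genes.

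The levels of the 80 genes did not vary as 1 block over the libraries. The median over the set had an SD of 0.33 over libraries on the log2 scale, and the genes had a median SD of 0.30 about it. This SD was above 0.5 in 15 genes, led by RpL23A and RpL4 at 0.74, RpL39 at 0.70, RpL22 at 0.67 and RpL7A at 0.60. It includes differences between replicates of a group. RpL23A, RpL4 and RpL7A had their lowest values in an hfp replicate 1 library, and RpL39 was 8129 and 1990 TPM in the young replicates. Relative to the library's median over the set, RpL39 was highest in tst mutant replicate 2 and lowest in the bam mutant. On the same scale RpL22 was highest in young replicate 1 and lowest in control input replicate 1. RpL22 was 1669 and 655 TPM in the adult replicates, so its own replicates differed widely.

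**Figure D5:**
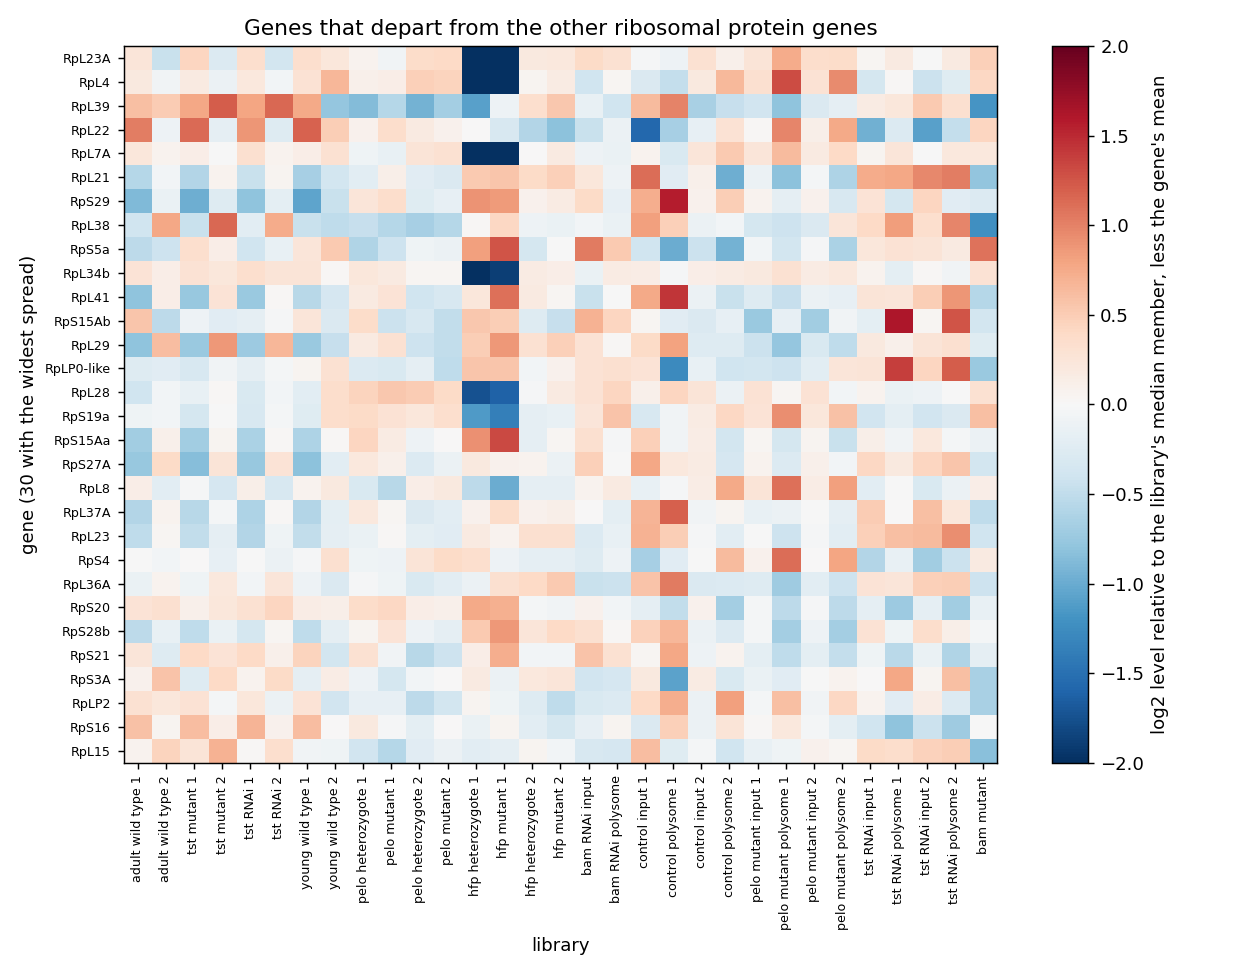
Log2 level of the 30 genes with the widest spread (vertical axis) in each library (horizontal axis), relative to the library's median over the 80 genes and to the gene's mean; red is higher, blue lower. RpL23A, RpL4, RpL7A, RpL34b and RpL28 are low in both hfp replicate 1 libraries.

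The genes are spread over the genome. In Release 6 coordinates, 17 lie on 2L, 19 on 2R, 14 on 3L, 16 on 3R, 13 on X and 1, RpS3A, on chromosome 4. The nearest to tst, at 3R:23768399-23772859, is RpS3, 408 kb away. RpS29 is at 3R:9778042-9779528 and RpS5a at X:17143588-17148264.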

How the data were processed

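Poly(A) RNA of whole ovaries was sequenced after polysome gradients where labelled, and the submitters' processing notes name HISAT2 2.0.5, featureCounts 1.5.1 and the build dm6. The authors deposited log2 TPM values. They were read as log2(TPM + 0.5), since the linear values less that offset add up, within rounding, to the total that defines TPM in every library of the main table, and were turned into log2(TPM + 1).

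A gene entered a fit if 2 or more of its libraries reached 1 TPM. One limma 3.58.1 fit in R 4.3.3, with a trend in the variance, was used for the 16 total mRNA libraries, one for the 6 input libraries and one for the 12 input and polysome libraries in which each preparation was a block, as each input belongs to a polysome sample per the labels. Differences of ratios are interaction terms. P values were adjusted by Benjamini-Hochberg over all genes tested, and 0.05 was the threshold. The scripts were tested on simulated data. Precision is limited by 2 libraries per group, and depth is unknown.

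The members and the gene lists were chosen with earlier results of these data known. The list of genes with a copy set aside was corrected after values were seen, when RpL37A, which shares only its name with that copy, was removed. Named genes are, per comparison, up to 8 with the largest change in each direction that passed, or otherwise the 2 highest and 2 lowest, the 4 highest and 4 lowest in adult wild type, members of role lists, and up to 4 genes of other lists by p. Some genes that this rule names are not reported here. Genes named for their spread, for the hfp libraries, or from the single bam libraries were chosen after their values were seen, as was RpL22 in the added fit. Across genes, the differences between replicates 2 and 1 correlated between groups at 0.613 to 0.762 among adult, young and tst groups. Between heterozygote and mutant they correlated at 0.653 for pelo and 0.717 for hfp, and between pelo and hfp groups at 0.171 to 0.380. The number thus pairs these samples, less closely between pelo and hfp groups. The fit with the replicate number as a block is given where it changes a count. Positions came from a RefSeq table of Release 6, where 79 symbols matched directly and 1 by an older name. Close copies such as RpS14a and RpS14b, RpS15Aa and RpS15Ab, or RpL34a and RpL34b may share reads. Figures used matplotlib 3.10.9 in Python 3.11.15. Pseudocounts, filters, scalings, blocks and left-out replicates were tried as alternatives.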

Additional observations from a re-analysis of the deposited data

Results flagged for a closer look

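In the polysome to input ratio of tst RNAi against control, 47 of the 80 genes differed by the interaction test, all lower in tst RNAi. Among all genes 0.968 percent were lower. Members with large differences included RpS29 at -2.36, RpLP2 at -2.07, RpL32 at -2.06, RpS21 at -2.02, RpS16 at -2.01, RpS26 at -1.89 and RpS12 at -1.87. The count rests on the scaling: with quantile normalization, or TPM rescaled over genes outside the set, no gene of the table passed. In pelo mutants against control, RpS29 at -1.61 and RpS21 at -1.40 were above 0 in both control preparations and below 0 in both of the mutant, but the interaction test did not pass, so that difference is not shown.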

How the results depend on the processing

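Of 1084 values of named genes under the alternatives, 870 kept direction and side of the threshold, 172 no longer passed, 12 newly passed and 30 changed sign; of 186 counts of calls, 141 stayed within 1.5 times. The cause of each move below was not tested.

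Rises in young ovaries numbered 18 with the replicate block and 3 in the fit of the 2 groups alone. With the block in the adult, young and tst libraries alone they numbered 41, and the tst mutant had 11. Among all genes 12.4 percent rose with the block, and 1209 genes did in the 2 groups alone. In the adult, young and tst libraries alone 21.7 percent rose, and in the tst mutant 18.6 percent. For the inputs, pelo mutant calls were 5 with no filter, 44 with equal library medians, 9 with quantile normalization, 4 with the replicate block, 47 with TPM rescaled over other genes, and 0 to 60 with a library left out. The tst RNAi input calls were 15, 64, 9, 4 and 40 under the same settings, 15 without eggshell and yolk genes, and 2 to 75 with a library left out. Among all genes, rises in pelo mutant inputs were 12.6 percent with no filter, 22.2 with equal medians and 12 with quantile normalization. In tst RNAi inputs they were 21.3, 36.7 and 20.6 percent. With the block 1018 and 1675 of 8426 genes rose, and rescaled over other genes 1665 and 2318 genes did. In tst RNAi 1735 rose without eggshell and yolk genes. The set was near or below these shares with no filter, quantile normalization and the block. In total mRNA the replicate block changed no other count of calls. Input replicate numbers correlated at -0.24 to -0.01, so they share only a number.

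Calls in the control ratio were 18 with no filter, 63 with equal medians, 13 with quantile normalization, 19 with no replicate block and 18 to 43 with a preparation left out. In the pelo mutant ratio they were 1 with a filter of 5 TPM and 5 with quantile normalization, and in the averaged ratio 20 with quantile normalization and 1 to 30 with a preparation left out. The pelo mutant difference had 0 to 37 calls with a preparation left out. The tst RNAi difference had 24 with no filter, 18 with equal medians, 0 with quantile normalization, 27 with no replicate block, 0 with TPM rescaled over other genes, with or without eggshell and yolk genes, and 0 to 65 with a preparation left out.

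Signs turned with equal medians for RpL38 in young (0.20), RpL3 in hfp mutants (0.13), RpL21 in the control ratio (0.048), RpS3A in the pelo mutant difference (-0.23), and the medians of the pelo mutant (0.18) and averaged ratios (0.23). With quantile normalization they turned for RpL39 in young (-0.12), RpLP0 in the tst mutant (-0.24) and pelo mutant (-0.15), and RpLP0-like in the pelo mutant difference (-0.010). Without eggshell and yolk genes they turned for RpL39 in young (-0.12) and RpLP0 in pelo mutants (-0.044). Rescaled over other genes they turned for RpL38 in young (0.14), RpL3 in hfp mutants (0.0048) and RpS3A in the pelo mutant difference (-0.060, and -0.16 also without eggshell and yolk genes).

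With a library left out, medians ranged from -0.23 to 0.78 in pelo mutants and -0.013 to 0.56 in hfp mutants. RpL3 in hfp mutants ranged from -0.34 to 0.14, and in young ovaries RpL38 from -0.56 to 0.39 and RpL39 from -0.998 to 1.03. RpLP0 ranged from -0.31 to 0.40 in pelo mutants, -0.078 to 0.41 in the tst mutant and -0.28 to 0.052 in tst RNAi. In tst RNAi RpLP2 ranged from -0.35 to 0.0070 and RpS21 from -0.058 to 0.66, and in pelo mutants RpS15Ab from -0.81 to 0.37 and RpS26 from -0.10 to 1.09.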
